A study of Mus musculus with 18 samples.

Results

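Fibrillar collagen genes and *Mgp* were followed through the first steps of muscle cell differentiation in culture. The genes are *Col1a1*, *Col1a2*, *Col2a1*, *Col3a1*, *Col5a1*, *Col5a2*, *Col5a3*, *Col11a1* and *Mgp*, 9 of the 19153 genes listed for every library. They were matched by Ensembl gene ID and chosen because earlier results of these libraries drew attention to their step from proliferation to confluence, so that step is given below as a description without a test. All 9 were among the 17672 genes that passed the filter on low counts. RNA was sequenced from immortalized mouse myoblasts, the proliferating precursors of muscle fibres, in 6 groups of 3 libraries. All cells were p53 knockout. The wildtype cells (WT) kept LAP2α and had received an empty Cas9 vector, and the knockout cells (KO) had received Cas9 with a guide RNA against LAP2α, a nucleoplasmic protein that binds lamin A/C. Both were sorted pools and not single clones. Each genotype was harvested while proliferating below confluence in 20% fetal calf serum (Prol), at confluence before the serum was lowered (D0), and after 48 hours in 5% serum (D2), on plates coated with collagen I from rat tail in all 3 states.

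Fibrillar collagens are secreted as procollagens of 3 chains, trimmed by proteases outside the cell, and assembled into the fibrils of the extracellular matrix. Type I collagen is built from the products of *Col1a1* and *Col1a2* and type III from that of *Col3a1*, whereas the type V and type XI chains are minor components that set the start and width of fibrils, and type II collagen, from *Col2a1*, is the fibrillar collagen of cartilage. *Mgp* encodes matrix Gla protein, a small vitamin K dependent protein of the matrix that inhibits calcification. It is no collagen.

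The collagen members share a gene structure, given here as background because they were taken as fibrillar collagens. In the principal GENCODE M21 transcripts they had between 51 and 67 exons, of which 21 (*Col1a1*) to 31 (*Col5a3* and *Col11a1*) were coding exons of exactly 54 bases. Such an exon encodes 6 repeats of a glycine followed by a pair of other residues, the repeat that lets 3 chains wind into the triple helix. Glycine codons started every repeat in all of these exons in 7 of the 8 collagen members, and in 23 of 24 in *Col1a2*. The middle exon of this kind is shown for 5 members. They cover *Col1a1*, the chain with the highest group mean per kilobase on D2, a rank that rested on replicate 1. The others are *Col3a1*, *Col5a3* and *Col11a1*, whose group means were higher on D2 than in D0, and *Col2a1*, whose mean was lower. Glycine codons are in capitals.
*Col1a1*, exon 26, chr11:94944355-94944408, plus strand: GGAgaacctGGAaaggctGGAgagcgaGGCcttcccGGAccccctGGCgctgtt
*Col3a1*, exon 26, chr1:45334761-45334814, plus strand: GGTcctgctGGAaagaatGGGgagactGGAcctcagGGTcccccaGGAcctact
*Col5a3*, exon 38, chr9:20785573-20785626, minus strand: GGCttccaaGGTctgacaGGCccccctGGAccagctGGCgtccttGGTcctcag
*Col11a1*, exon 38, chr3:114151375-114151428, plus strand: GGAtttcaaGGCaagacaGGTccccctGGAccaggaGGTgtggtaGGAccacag
*Col2a1*, exon 29, chr15:97985863-97985916, minus strand: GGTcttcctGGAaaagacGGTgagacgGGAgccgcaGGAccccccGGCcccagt
All coordinates are on GRCm38. The repeat did not make the members indistinguishable to 50-base reads. No 50-base stretch of the principal transcript was found in a transcript of another gene for 8 of the 9 members, and for *Col3a1* 1.67% of the stretches were shared, with the overlapping annotated gene *Gm47302*.

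The members lie at 8 places on 7 chromosomes. *Col3a1* (chr1:45311538-45349706, plus strand) and *Col5a2* (chr1:45374321-45503282, minus strand) are neighbours separated by 24614 bases. *Col1a2* (chr6:4504814-4541544, plus strand) and *Mgp* (chr6:136872435-136875823, minus strand) share a chromosome but are far apart. The others are *Col5a1* (chr2:27886425-28039514, plus strand), *Col11a1* (chr3:114030540-114220718, plus strand), *Col5a3* (chr9:20770050-20815067, minus strand), *Col1a1* (chr11:94936224-94953042, plus strand) and *Col2a1* (chr15:97975602-98004695, minus strand). *Mgp* is the short member, with 4 exons and 617 bases in its principal transcript, against 5104 to 8406 bases in the collagens.

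Upstream sequence from RefSeq (GRCm38.p6) was matched for 5 members, *Col3a1*, *Col5a1*, *Col11a1*, *Col1a2* and *Col5a3*, and not for *Col1a1*, *Col2a1*, *Col5a2* and *Mgp*. The 250 bases before the transcript start were searched on both strands for 3 short motifs of general promoters that share no letters in these windows. They were the CCAAT box, the TATA box in the form TATAAA, and the GC box in the form GGGCGG. The CCAAT box was found before *Col1a2*, *Col11a1* and *Col5a3*, the TATA box before *Col3a1*, and the GC box before *Col5a1*, *Col11a1*, *Col1a2* and *Col5a3*. Of all 32851 promoters of this length, 33.8% held the CCAAT box, 12.4% the TATA box and 32.7% the GC box. The sequences of *Col5a3* and *Col5a1* are shown because these 2 chains of the same collagen type differed in their step to D0. Matches are in capitals, on either strand.
*Col5a3*, chr9:20815068-20815317, minus strand: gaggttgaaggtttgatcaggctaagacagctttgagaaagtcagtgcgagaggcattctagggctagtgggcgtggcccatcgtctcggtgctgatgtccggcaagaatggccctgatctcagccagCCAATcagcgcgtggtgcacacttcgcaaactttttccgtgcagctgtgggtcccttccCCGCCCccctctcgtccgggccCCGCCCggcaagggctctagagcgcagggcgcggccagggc
*Col5a1*, chr2:27886175-27886424, plus strand: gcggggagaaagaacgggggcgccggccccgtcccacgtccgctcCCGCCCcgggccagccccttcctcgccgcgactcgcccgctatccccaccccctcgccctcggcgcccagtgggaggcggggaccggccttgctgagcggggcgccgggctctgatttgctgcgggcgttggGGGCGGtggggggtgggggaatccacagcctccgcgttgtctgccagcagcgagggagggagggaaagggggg
The CCAAT match of *Col5a3* started 122 bases before the transcript start, and *Col5a1* had no such match in this window. These matches describe letters and were not tested as sites.

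The libraries held 26437823 to 41619016 expected counts (median 32939620), and levels are counts per 1000000 of the scaled library total (CPM), in which 3 counts correspond to between 0.0651 and 0.119 CPM. The precision of the members is not set by depth. The lowest expected count of any member in any library was 70, for *Col2a1*. *Tmpo*, the gene that encodes LAP2α together with other isoforms that the counts do not separate, ranged from 275 to 315 CPM in WT Prol and from 228 to 260 CPM in KO Prol. The labels do not say whether replicates came from separate cultures, so p-values measure the spread between these libraries only. For part of the genes the replicate 1 library was the highest in all 6 groups. The same count was not made for replicates 2 and 3. A total of 2186 of the 17672 genes tested (12.4%) were highest in replicate 1 of every group, and 5 of the 9 members were among them: *Col1a1*, *Col2a1*, *Col5a1*, *Col5a2* and *Col11a1*. *Col1a1* in replicate 1 was between 2.06 and 12.7 times the mean of the other 2 libraries of its group, and *Col2a1* between 4.18 and 6.10 times. In *Mgp* and *Col5a3* the ratio ran from below to above 1, from 0.497 to 1.90 and from 0.627 to 1.58. The cause of this difference was not tested.

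Levels of different genes were compared per kilobase of the principal transcript. In WT Prol *Col1a2* was the highest member at 446 ± 44.5 CPM per kb (SD, n = 3), and its 3 libraries did not overlap those of the next, *Col1a1*, at 169 ± 170. *Col5a2* (106 ± 38.7), *Col3a1* (83.1 ± 10.7), *Mgp* (53.7 ± 16.8) and *Col5a1* (52.3 ± 16.1) followed. Among these neighbours, only *Col3a1* and *Mgp* did not overlap. The lowest were *Col2a1* (24.4 ± 26.5), *Col11a1* (3.59 ± 2.84) and *Col5a3* (2.60 ± 0.733). By group means the genes of type I collagen led. *Col11a1* and *Col5a3*, chains of the minor fibril components, were at the bottom, below cartilage collagen *Col2a1*. The second place of *Col1a1* rested on replicate 1, its highest library at 365 CPM per kb. In replicates 2 and 3 *Col1a1* was below *Col3a1*, and its lowest library was at 67.9 against 74.5 for *Col3a1*.

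On D2 the order was different. In WT, *Col1a1* (923 ± 993 CPM per kb), *Col3a1* (786 ± 352), *Mgp* (771 ± 308) and *Col1a2* (673 ± 432) formed an upper set whose neighbours overlapped (SD, n = 3 each). *Col1a2*, the last of them, did not overlap *Col5a2* (197 ± 134), but *Col1a1* did. Its lowest library was at 303 CPM per kb, and the highest of *Col5a2* was at 352. In WT D2 replicates 2 and 3 *Col1a1* was below *Col3a1*, *Mgp* and *Col1a2*, so its first place rested on replicate 1. *Col5a3* had moved above *Col11a1*, to 36.3 ± 10.3 against 11.7 ± 12.7, and *Col2a1* was last at 1.22 ± 1.33. The same 4 genes led in KO D2, in the same order of group means. *Col1a1* was at 1146 ± 973, *Col3a1* at 1142 ± 645, *Mgp* at 885 ± 207 and *Col1a2* at 852 ± 420 CPM per kb. Replicate 1 was again the highest library of *Col1a1*. In replicate 2 *Col1a1* was below *Col3a1* and *Mgp*, and in replicate 3 it was below *Col3a1*, *Mgp* and *Col1a2*. Summed over the 9 members, their CPM was a median of 0.458% of the scaled library total in WT Prol, 0.412% in WT D0 and 1.03% in WT D2, and 0.522%, 0.483% and 1.44% in KO. The highest library of KO D2, replicate 1, reached 3.71%. In these bulk samples, more cells of a type and more RNA per cell cannot be told apart.

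**Figure D1:**
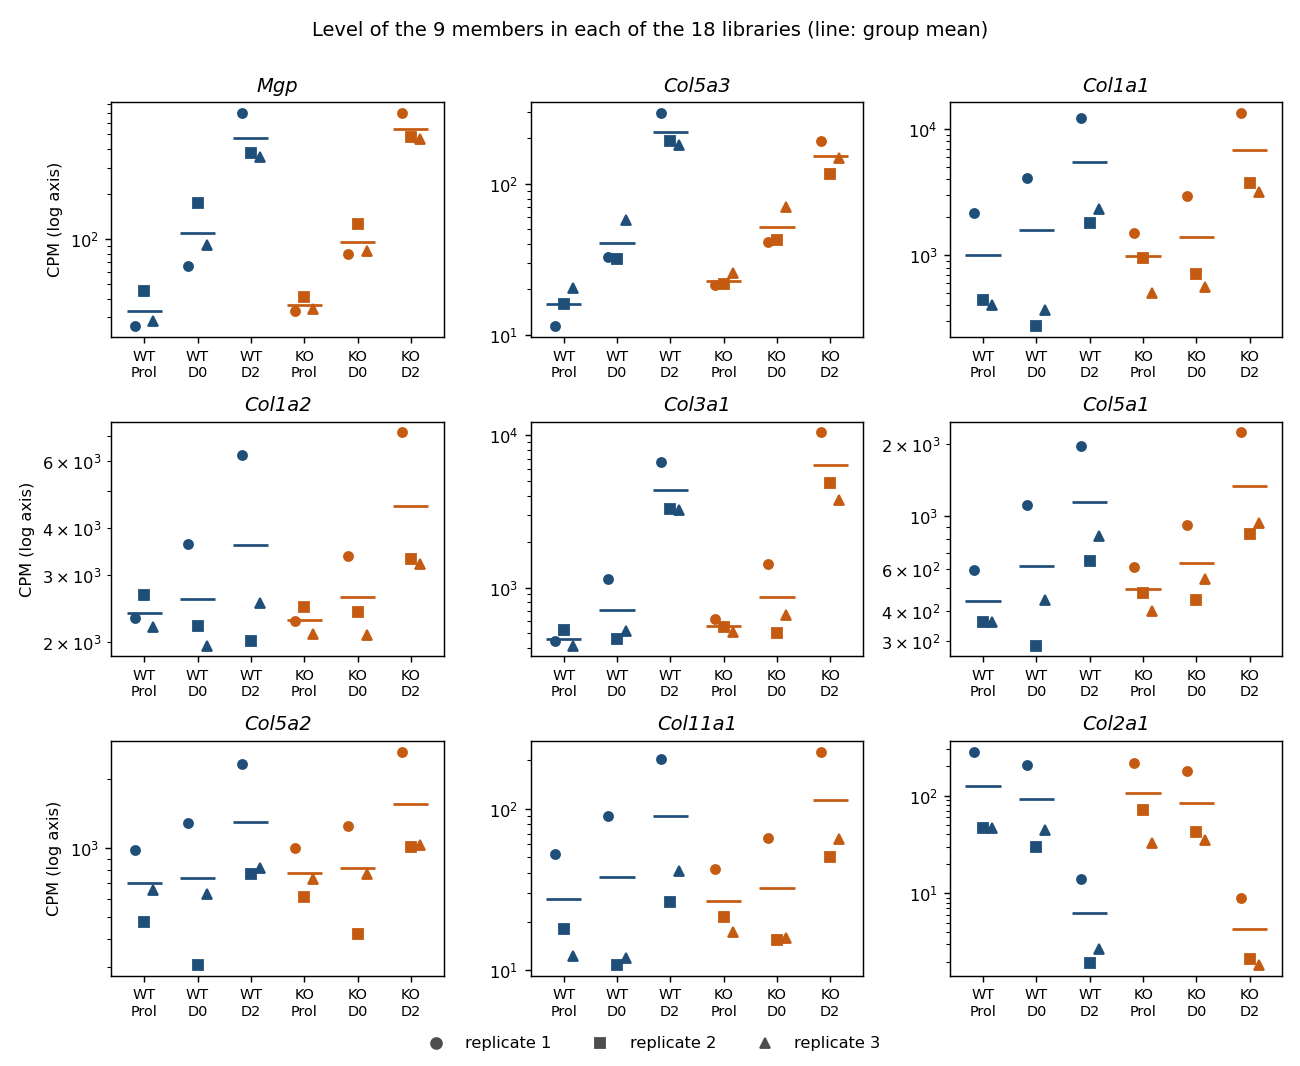
Level of each of the 9 members in the 18 libraries, in CPM on a log axis; points are libraries (shape: replicate number), lines are group means, blue is WT and orange is KO. *Mgp* and *Col5a3* stepped up in both D0 and D2, *Col2a1* was low in D2 only, and the circles of replicate 1 sat above the other libraries of their group in *Col1a1*, *Col2a1*, *Col5a1*, *Col5a2* and *Col11a1*.

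The step from Prol to D0 asks what changed when the cells met, before serum was lowered. The members were chosen on this step, so it is described without a test. *Mgp* was at 26.1, 45.0 and 28.3 CPM in the 3 WT Prol libraries (replicates 1, 2 and 3) and at 66.0, 175 and 90.7 CPM in WT D0. In KO it was at 33.2, 40.7 and 34.4 CPM in Prol and at 79.3, 126 and 83.4 CPM in D0. The D0 and Prol libraries did not overlap in either genotype, and the fitted fold change was 3.16 in WT and 2.62 in KO.

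*Col5a3*, the least abundant chain gene of type V collagen, behaved alike. It was at 11.4, 16.0 and 20.4 CPM in WT Prol and at 32.8, 31.6 and 57.9 CPM in WT D0. In KO the values were 21.3, 21.7 and 25.6 CPM in Prol and 41.3, 42.7 and 70.5 CPM in D0. Again no D0 library overlapped a Prol library, and the fitted fold change was 2.53 in WT and 2.19 in KO.

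The other 7 members did not separate the states. Members whose D0 libraries all exceeded their Prol libraries numbered 2 of 9 in WT, where 3.1% of all genes tested did so, and 2 of 9 in KO, where 2.41% did. Nothing is read from these shares, since the step chose the members. In the other collagens the direction of the step went with the replicate number. Between the replicate 1 libraries 8 of 9 members were higher in D0 in each genotype, the exception being *Col2a1*. Of all genes tested, 49.0% were higher between these libraries in WT and 51.7% in KO. Between the replicate 2 libraries *Mgp* and *Col5a3* alone were higher, in both genotypes, beside 44.1% of genes tested in WT and 45.3% in KO. Between the replicate 3 libraries 4 of 9 members were higher in WT and 7 of 9 in KO, beside 50.9% and 49.9% of genes tested.

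*Col1a1* shows this pattern. It was at 2163, 440 and 403 CPM in WT Prol and at 4081, 273 and 371 CPM in WT D0, so that replicate 1 was higher in D0 while replicates 2 and 3 were lower. In KO it was at 1507, 961 and 504 CPM in Prol and at 2950, 711 and 564 CPM in D0. The mean of 3 libraries was higher in D0 in both genotypes, although the fitted log2 fold change was 0.04 in WT and 0.23 in KO.

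*Col3a1* was at 443, 529 and 415 CPM in WT Prol and at 1145, 458 and 516 CPM in WT D0, and at 621, 547 and 511 CPM in KO Prol and 1418, 502 and 662 CPM in KO D0. The high D0 value again came from replicate 1. *Col5a1* had fitted log2 fold changes of 0.29 in WT and 0.31 in KO and *Col1a2* of 0.07 and 0.17, while *Col5a2* (-0.10 and -0.04), *Col11a1* (0.01 and 0.01) and *Col2a1* (-0.39 and -0.30) had values near or below 0. Over the 9 members the median was 0.07 in WT and 0.23 in KO, beside -0.03 in both genotypes over all genes tested.

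**Figure D2:**
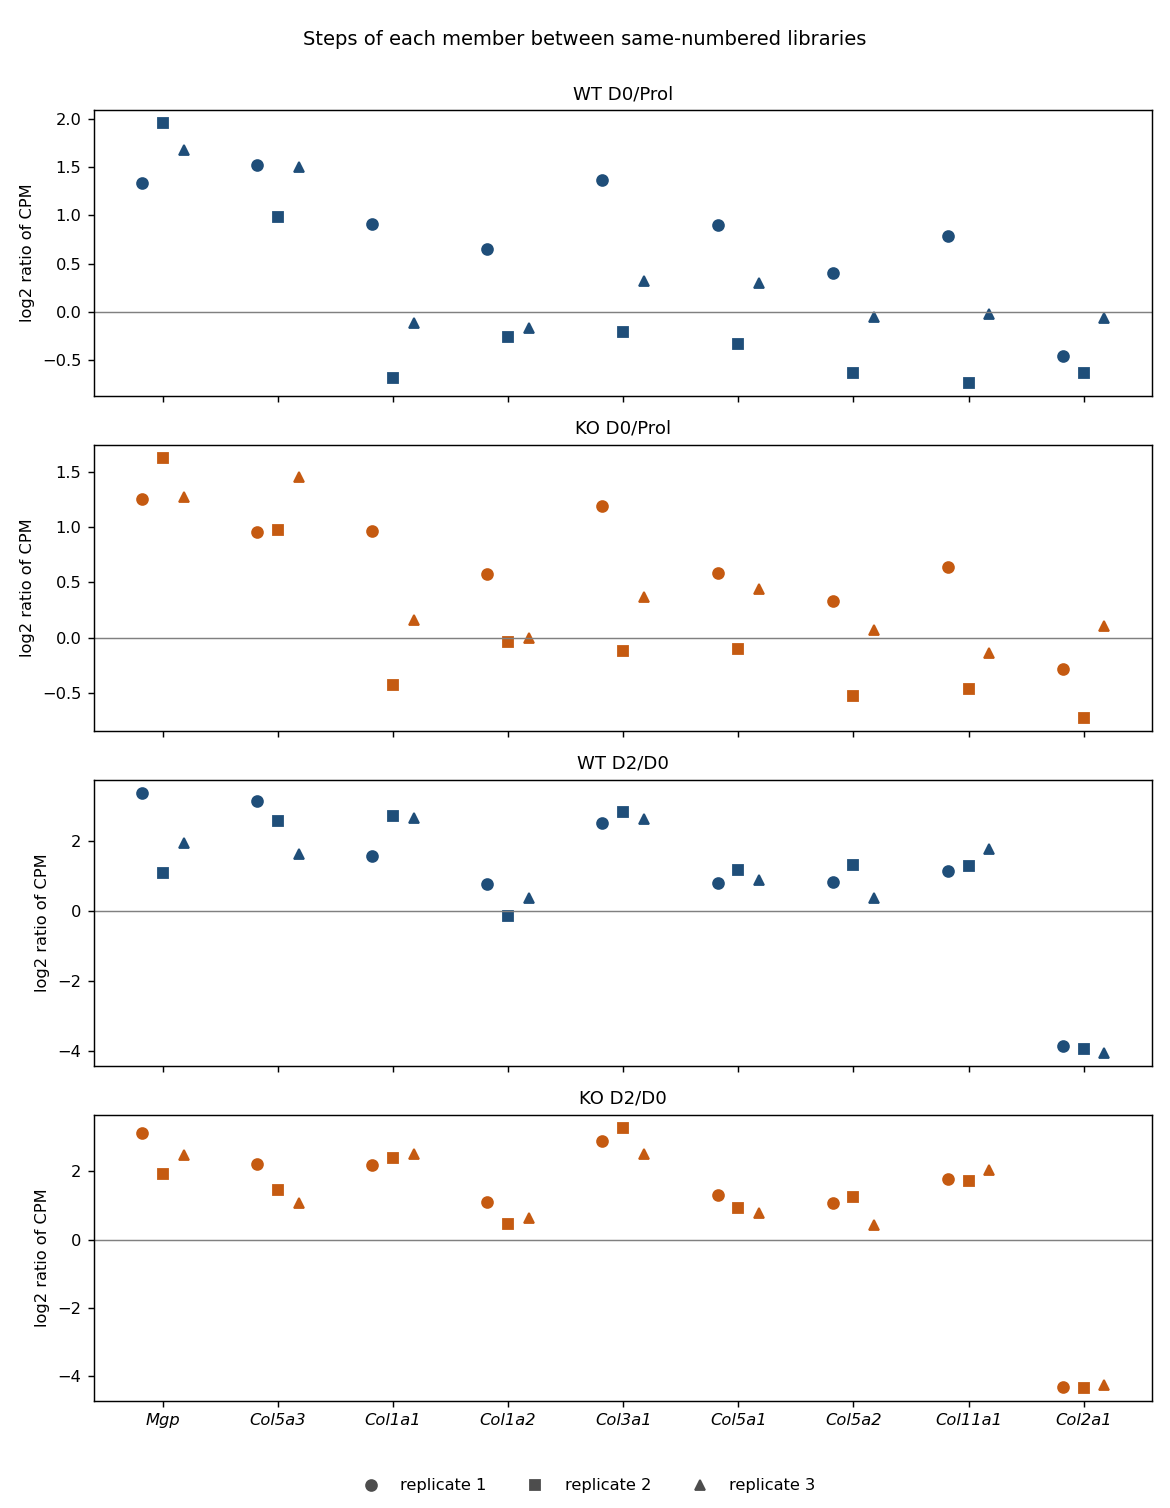
Log2 ratio of CPM between same-numbered libraries for each member, for D0 against Prol and D2 against D0 in WT (blue) and KO (orange); each point is a pair of libraries and the shape gives the replicate number. *Mgp* and *Col5a3* were above 0 in all 3 pairs of every panel, the other collagens scattered around 0 from Prol to D0 with replicate 1 on top in most, and from D0 to D2 *Col2a1* alone was far below 0.

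The step from D0 to D2 covers 48 hours in low serum and was tested, with the limit that it shares the D0 libraries with the step that chose the members. *Mgp*, *Col5a3* and *Col3a1* rose and *Col2a1* fell in both genotypes, at a Benjamini-Hochberg adjusted p-value under 0.05 in limma. *Mgp* was at 695, 377 and 354 CPM in WT D2 and at 694, 481 and 464 CPM in KO D2, above every D0 library. Its log2 fold change was 2.16 (SE 0.35, adjusted p = 0.000245, limma) in WT and 2.51 (SE 0.35, adjusted p = 6.03e-05, limma) in KO, or 4.46-fold and 5.71-fold.

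*Col3a1*, the type III chain, was at 6630, 3275 and 3210 CPM in WT D2 and at 10452, 4858 and 3756 CPM in KO D2. No D2 library overlapped a D0 library. The rise was 6.36-fold in WT (log2 fold change 2.67, adjusted p = 0.000462, limma) and 7.40-fold in KO (2.89, adjusted p = 0.000224, limma), and in the same-numbered pairs it was close in size, from 2.51 to 3.27 on the log2 scale.

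*Col5a3* was at 295, 192 and 180 CPM in WT D2 and at 193, 117 and 148 CPM in KO D2. The WT rise was 5.54-fold (log2 fold change 2.47, adjusted p = 2.05e-05, limma) and the KO rise 3.00-fold (1.58, adjusted p = 0.000925, limma). All D2 libraries were above all D0 libraries in each genotype.

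*Col2a1* went the other way. It was at 204, 29.7 and 44.5 CPM in WT D0 and at 14.1, 1.93 and 2.69 CPM in WT D2, and at 177, 42.6 and 35.1 CPM in KO D0 and 8.86, 2.12 and 1.85 CPM in KO D2. Replicate 1 was the highest library in all 4 groups, and the states did not overlap. The fall was 15.5-fold in WT (log2 fold change -3.95, adjusted p = 0.00856, limma) and 19.7-fold in KO (-4.30, adjusted p = 0.00454, limma). The same-numbered ratios lay close together, from -4.05 to -3.86 (log2) for WT and from -4.33 to -4.25 for KO, although the levels differed several-fold between replicates.

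Counts of calls were 3 members higher and 1 lower of 9 in WT, where 14.7% of all genes tested were called higher and 11.3% lower, and 3 higher and 1 lower in KO, where 15.3% and 12.9% were. The median log2 fold change of the members was 1.41 in WT and 1.58 in KO, beside 0.00 and 0.06 over all genes tested. The other 5 members were not called in this fit, with adjusted p-values of 0.115 to 0.613 in WT and 0.103 to 0.257 in KO (limma). In KO, same-numbered libraries deviated together in all 3 pairs, and with the replicate number as a block all 9 members were called, 8 higher and 1 lower, where 23.6% of genes were called higher and 22.4% lower. The WT libraries did so in replicates 1 and 2 but not in replicate 3. The block in WT called 8 of 9 members, 7 higher and 1 lower, beside 7642 of 17672 genes tested in either direction.

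*Col1a1* is the clearest of these. In WT D2 it was at 12263, 1797 and 2351 CPM and in KO D2 at 13453, 3754 and 3182 CPM. The KO D2 libraries were all above the KO D0 libraries, whereas in WT the highest D0 library, replicate 1, was above the D2 libraries of replicates 2 and 3. The fitted rise was 5.00-fold in WT (log2 fold change 2.32, adjusted p = 0.115, limma) and 5.14-fold in KO (2.36, adjusted p = 0.103, limma), and blocking on the replicate number gave KO an adjusted p-value of 0.000137 (limma). Without the single WT D0 library of replicate 1, the WT value was 3.55 on the log2 scale and passed the threshold, as did the value of *Col5a1*. Without the single WT D2 library of replicate 1, the *Col1a1* value was 1.46 and not called. Replicate 1 was high in both states, so either omission moves the step by itself. Without the replicate 1 libraries of all groups, it was 2.69 and called.

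*Col11a1*, the gene of a type XI collagen chain, was at 202, 26.4 and 41.1 CPM in WT D2 and 225, 50.4 and 65.1 CPM in KO D2, against 90.3, 10.8 and 11.9 CPM and 65.4, 15.3 and 15.7 CPM in D0. Each same-numbered pair was higher in D2, with log2 ratios from 1.16 to 1.78 for WT and from 1.72 to 2.05 for KO, and the adjusted p-value in KO was 0.149 without and 0.00015 with the replicate block (limma). *Col5a1* and *Col5a2*, the major chains of type V collagen, were also higher in D2 in all 6 pairs, with fitted log2 fold changes of 0.96 and 0.85 in WT and 1.00 and 0.92 in KO. Their adjusted p-values in KO were 0.168 and 0.257 without and 0.00206 and 0.00457 with the block (limma).

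*Col1a2*, the gene of the second type I chain, had the smallest step. It was at 6248, 2008 and 2536 CPM in WT D2 against 3616, 2207 and 1952 CPM in WT D0, with a log2 fold change of 0.34 (adjusted p = 0.613, limma), and at 7149, 3316 and 3204 CPM in KO D2 against 3369, 2399 and 2087 CPM in KO D0, with 0.72 (adjusted p = 0.231, limma). The KO value passed the threshold narrowly with the block (adjusted p = 0.0467, limma). In WT replicate 2 the level was lower in D2 than in D0, by 0.14 on the log2 scale.

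Against Prol the same 4 members were called in D2 in each genotype. WT called 3 of 9 higher and 1 lower, where 16.6% of genes tested were called higher and 14.1% lower, and KO likewise 3 and 1, where 17.1% and 15.2% were. *Mgp* was 14.1-fold higher in WT and 14.9-fold in KO, *Col5a3* 14.0-fold and 6.56-fold, and *Col3a1* 8.95-fold and 10.3-fold, and *Col2a1* was 20.2-fold lower in WT and 24.2-fold lower in KO. With the replicate block in KO all 9 members were called, 8 higher and 1 lower, where 24.6% of genes were called higher and 23.9% lower. In KO every D2 library was above every Prol library in 8 members, where 25.1% of genes tested did so, and below in *Col2a1*, where 22.6% did. These comparisons share the Prol libraries with the step that chose the members and the D2 libraries with the step from D0, and are no separate evidence.

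Ratios between chain genes within a library do not depend on the scaling of libraries. *Col1a1* to *Col1a2*, taken per kilobase, was 0.845, 0.150 and 0.166 in WT Prol, 1.02, 0.112 and 0.172 in WT D0 and 1.77, 0.807 and 0.836 in WT D2. In KO it was 0.601, 0.350 and 0.217 in Prol, 0.790, 0.267 and 0.243 in D0 and 1.70, 1.02 and 0.896 in D2. In replicates 2 and 3 the ratio was thus far below 1 in Prol and D0 and near 1 in D2, whereas in replicate 1 it was higher in every group. All D2 ratios exceeded the Prol and D0 ratios of their own replicate number.

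*Col3a1* to *Col1a2* was tighter. It ran from 0.182 to 0.192 in WT Prol, from 0.200 to 0.304 in WT D0 and from 1.02 to 1.57 in WT D2. For KO the corresponding ranges were 0.213 to 0.264, 0.201 to 0.405 and 1.13 to 1.41. D2 did not overlap the other states. Replicate 1 was not the highest library in WT Prol, WT D2 or KO D2, but it was in WT D0, KO Prol and KO D0. *Col5a3* to *Col5a1* went from a mean of 0.0548 ± 0.0261 in WT Prol to 0.123 ± 0.0732 in D0 and 0.305 ± 0.100 in D2 (SD, n = 3), and in KO from 0.0661 ± 0.0201 to 0.124 ± 0.0583 and 0.176 ± 0.0517. *Col5a2* to *Col5a1*, the pair that makes up the main form of type V collagen, had group means from 1.43 to 2.01 and no library above 2.32. Its mean was lower in the later states, at 2.01 in Prol, 1.54 in D0 and 1.43 in D2 for WT. For KO the means were 2.01, 1.58 and 1.47. In both genotypes every Prol library was at 1.62 or above and every D2 library at 1.51 or below, while D0 overlapped both.

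**Figure D3:**
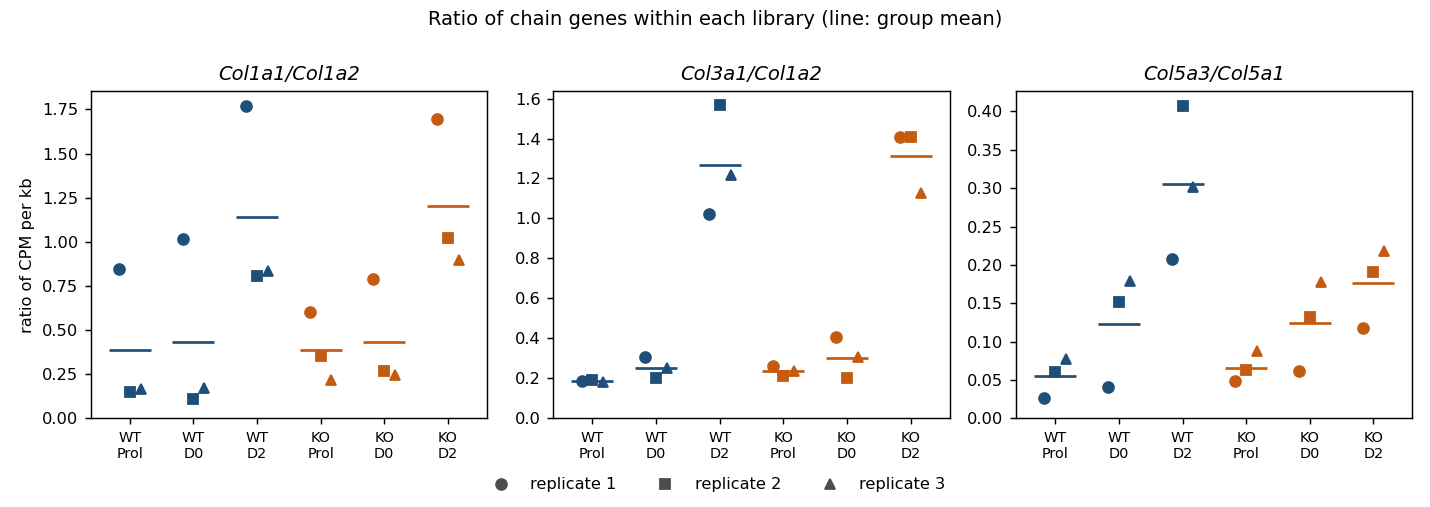
Ratio of CPM per kb between chain genes in each library (linear axis; point shape: replicate number, line: group mean, blue WT, orange KO). The *Col1a1* to *Col1a2* ratio was highest in replicate 1 of every group, the *Col3a1* to *Col1a2* ratio lay above 1 in all D2 libraries and below 0.5 in all others, and the *Col5a3* to *Col5a1* ratio was lowest in replicate 1.

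The comparison of KO with WT asks whether loss of LAP2α moved these genes. No member was called in any state in limma, and none had an unadjusted p-value under 0.05 in the fit without a block, so that 0 of 9 were called where 0.00566% of genes were called in Prol, 0% in D0 and 0% in D2. By the fit with voom weights and a random replicate block 0 of 9 were called as well. The limits were wide without the replicate block. Taken as the estimate plus and minus 2 standard errors, the log2 difference of *Mgp* lay between -0.53 and 0.85 in Prol, between -0.80 and 0.58 in D0 and between -0.44 and 0.94 in D2, and that of *Col1a1* between -1.76 and 2.38 in Prol and between -1.53 and 2.62 in D2. Same-numbered libraries deviated together in these comparisons, and with the replicate block the limits of *Col1a1* were -0.45 and 1.07 in Prol and -0.22 and 1.31 in D2, and those of *Mgp* -0.36 and 0.85 in D2. No member was called with the block either.

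*Col5a3* came nearest to a difference. In Prol its KO libraries (21.3 to 25.6 CPM) were all above its WT libraries (11.4 to 20.4 CPM), with a log2 difference of 0.56 (SE 0.30, unadjusted p = 0.0798, adjusted p = 1.00, limma). Of the 9 members, 1 was separated upward in this way and 0 downward. The share of all genes separated in this way was not counted, so nothing is read from it. In D0 the KO library was above the WT library of the same number in 3 of 3 pairs, with 0.35 (adjusted p = 1.00, limma). In D2 the order turned, and the KO library was below in 3 of 3 pairs, with -0.54 (unadjusted p = 0.092, adjusted p = 1.00, limma). The KO step from D0 to D2 was smaller than the WT step by 0.89 on the log2 scale, a difference with an unadjusted p-value of 0.052 and an adjusted p-value of 1.00 in limma, and it therefore failed the correction. With the replicate block the unadjusted p-values of *Col5a3* were 0.0444 in Prol, 0.0529 in D2 and 0.0264 for the difference of steps, and the adjusted ones 1.00, 0.954 and 1.00 (limma).

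No member was called in the tests of whether the steps differed between the genotypes, where 0% of genes were called for the step from Prol to D0 and 0% for the step from D0 to D2. At an unadjusted p-value under 0.05, 143 and 315 genes of 17672 differed in these tests, none of them a member in the fit without a block. In D2 *Col1a1*, *Col1a2*, *Col3a1*, *Col5a1*, *Col5a2* and *Col11a1* were higher in the KO than in the WT library of the same number in 3 of 3 pairs, by fitted log2 differences of 0.25 (*Col5a1*) to 0.58 (*Col11a1*), none of which passed the test. Of all genes tested, 40.9% were higher in KO D2 in the pair of replicate 1, 51.8% in replicate 2 and 51.1% in replicate 3. The share higher in all 3 pairs was not counted.

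**Figure D4:**
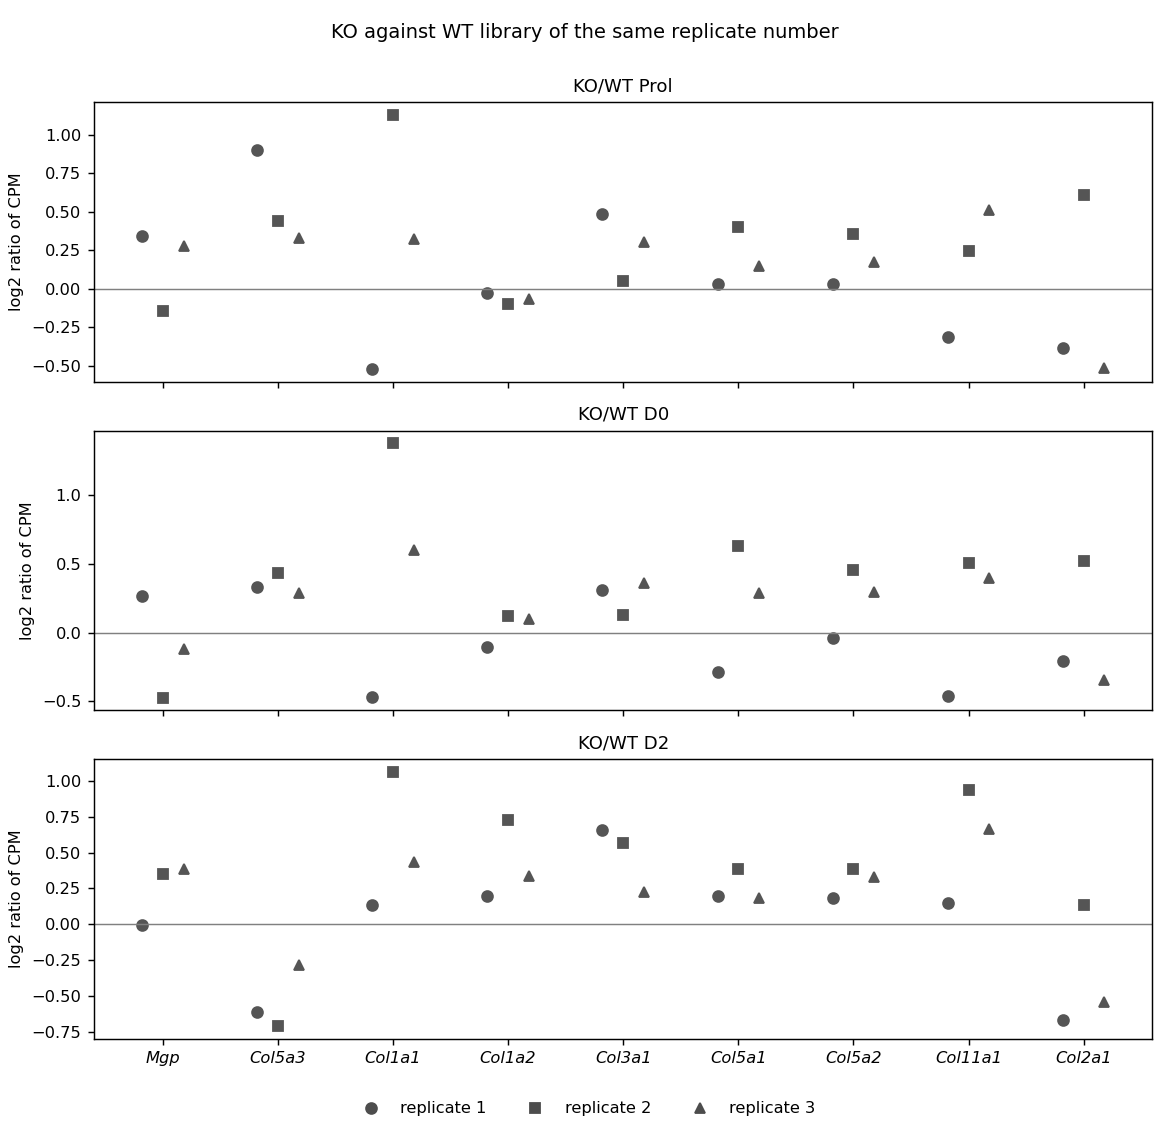
Log2 ratio of KO to WT CPM between same-numbered libraries, for each member in Prol, D0 and D2 (point shape: replicate number). *Col5a3* was above 0 in all 3 pairs in Prol and D0 and below 0 in all 3 pairs in D2, and the pairs of *Col1a1* spread from -0.52 to 1.13 in Prol.

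The 3 fibrillar collagen genes outside the member set, *Col11a2*, *Col24a1* and *Col27a1*, were low and rose on D2. In WT all 3 were called higher between D0 and D2, beside 14.7% of all genes tested. In KO *Col11a2* and *Col24a1* were, beside 15.3%. *Col11a2*, a type XI chain, went from 2.87 ± 0.886 to 12.5 ± 0.950 CPM in WT (SD, n = 3, adjusted p = 0.00212, limma), and *Col27a1* from 9.21 ± 2.87 to 22.5 ± 2.25 CPM (adjusted p = 0.00882, limma). In KO *Col27a1* went from 12.5 ± 5.04 to 20.6 ± 1.21 CPM (adjusted p = 0.0956, limma), and with the replicate block it was called (adjusted p = 0.0191, limma). *Col24a1* went from 0.777 ± 0.588 to 3.03 ± 1.18 CPM in WT (adjusted p = 0.00458, limma). It was scarce, with 45, 13 and 10 expected counts in the WT D0 libraries. Only 1 of the 3 was called in KO without KO D0 replicate 3 or KO D2 replicate 3. None of the 3 had all D0 libraries above all Prol libraries in either genotype.

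Genes that process and cross-link collagen were called about as often as other genes. Of 25 such genes, 4 were called higher and 2 lower between D0 and D2 in WT, where 14.7% and 11.3% of all genes tested were, and 5 higher and 2 lower in KO, where 15.3% and 12.9% were, with a median log2 fold change of 0.25 and 0.29. *Adamts2*, which removes the amino-terminal propeptide of procollagen, rose by 1.70 in WT and 2.05 in KO on the log2 scale, and *Loxl2*, a lysyl oxidase that starts cross-links, from 45.4 ± 13.3 to a mean of 126 CPM in WT, with the 3 libraries at 135, 124 and 118 CPM. *Adamts3*, a relative of *Adamts2*, decreased by 1.93 on that scale in WT, and *Pcolce2*, which enhances removal of the carboxy-terminal propeptide, decreased by 3.59 in WT, from 23.0 ± 9.32 to 1.82 ± 0.196 CPM in WT (SD, n = 3), and decreased by 3.68 in KO. With the replicate block in KO, 10 were called higher and 2 lower, where 23.6% and 22.4% of all genes were.

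Of 22 genes of fibril-associated matrix proteins, 11 were called higher and 0 lower in each genotype, beside 14.7% of all genes tested called higher and 11.3% lower in WT and 15.3% and 12.9% in KO, with a median log2 fold change of 1.41 for WT and 1.54 for KO. In the blocked KO fit, 19 were called higher, beside 23.6% of all genes. The genes with the largest rise were small leucine-rich proteoglycans that bind collagen fibrils. *Dcn*, encoding decorin, was at 0.378 ± 0.409 CPM in WT D0 and 47.8 ± 16.9 CPM in WT D2 (adjusted p = 6.58e-06, limma), and *Lum*, encoding lumican, went from 0.0504 ± 0.0302 CPM, at the level of 3 counts or below, to 3.02 ± 0.741 CPM (adjusted p = 1.17e-05, limma) (SD, n = 3 each). In KO *Dcn* reached 49.6 ± 10.3 and *Lum* 5.82 ± 2.16 CPM. The 2 genes are also on the list of fibroblast markers below.

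Of 7 collagen receptors 6 were analysed here, and 2 were called higher and 0 lower in each genotype (14.7% of all genes tested higher in WT, 15.3% in KO), with a median log2 fold change of 1.49 in WT and 1.58 in KO. These were *Itga10*, an integrin chain that binds collagen, which rose by 2.44 in WT and 2.72 in KO on the log2 scale, and *Mrc2*, an endocytic receptor for collagen, which rose by 1.29 and 1.37. With the replicate block in KO, 5 were called higher, beside 23.6% of all genes. In WT 4 were called without WT D0 replicate 1, and 1 without WT D0 replicate 2, WT D0 replicate 3 or WT D2 replicate 1, and in KO 1 without KO D0 replicate 2 or KO D2 replicate 1. Of 10 genes of gamma-carboxylation and mineralization that were tested, 3 were called higher and 1 lower in WT, and 3 and 2 in KO, with medians of 0.65 and 0.99 (log2). Of all genes tested, 11.3% were called lower in WT and 12.9% in KO, so the calls of lower genes were near the background. *Ggcx*, the carboxylase that modifies matrix Gla protein, rose from 22.0 ± 4.54 to 43.6 ± 4.87 CPM in WT (adjusted p = 0.0015, limma), *Enpp1*, which makes the mineralization inhibitor pyrophosphate, from 8.67 ± 3.46 to 53.1 ± 20.5 CPM (adjusted p = 0.000322, limma), and *Alpl*, the phosphatase that degrades it, fell from 33.2 ± 17.6 to 3.46 ± 1.67 CPM (adjusted p = 0.00022, limma) (SD, n = 3 each). *Mgp*, its carboxylase and *Enpp1* were thus higher and *Alpl* lower in D2 than in D0. *Spp1*, on the same list, was also lower, called in KO (log2 fold change -1.54, adjusted p = 0.0314, limma) and not in WT. *Ank* hardly moved in WT (-0.10, adjusted p = 0.877, limma). The genes named from the list were picked by the size of their change and do not sum it up.

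Of 8 transcription factors of collagen genes, 2 were called higher and 1 lower in WT and 0 and 1 in KO, with medians of 0.44 and 0.54 (log2). With 14.7% of all genes called higher and 11.3% lower in WT, and 15.3% and 12.9% in KO, these few calls do not set the list apart. The count was 1 in WT without WT D0 replicate 3 and 2 in KO without KO D2 replicate 1, and with the replicate block in KO 3 were called higher and 2 lower, beside 23.6% and 22.4% of all genes. *Scx*, encoding scleraxis of tendon cells, went from 23.5 ± 10.7 to 52.4 ± 3.37 CPM in WT (adjusted p = 0.0169, limma) and from 22.3 ± 3.23 to 42.9 ± 13.5 CPM in KO (adjusted p = 0.0772, limma). *Sox6*, a cartilage factor, stayed low, at 0.104 ± 0.119 CPM in WT D0 and 0.719 ± 0.616 CPM in WT D2 (adjusted p = 0.0274, limma). *Sp7*, encoding osterix of bone cells, fell from 2.86 ± 2.97 to 0.241 ± 0.145 CPM (adjusted p = 0.0131, limma) (SD, n = 3 each). In KO versus WT, no gene of these 6 lists was called in any state.

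Among markers of other cell types, the fibroblast and the smooth muscle or pericyte sums were higher on D2 and the osteoblast sum was lower. The endothelial and haematopoietic sums stayed low. Their part in the results was not tested. The summed CPM of 7 fibroblast or fibro-adipogenic markers, of 8 on the list, was 36.1 to 132 in WT D0 and 262 to 315 in WT D2, and 33.7 to 119 and 256 to 461 in KO. *Thy1*, a defining marker of that list, stayed at 1.99 CPM or below in WT, and *Tcf21* was not analysed here. The replicate 1 library held the highest sum in every group except KO D2. The 4 myoblast markers analysed, of 6, summed to 28.4 to 35.3 CPM in WT Prol, to a median of 42.4 CPM in WT D0 and to 335 to 532 CPM in WT D2. In KO D2 they summed to 225 to 260 CPM. *Myod1*, which defines myoblasts, was low in WT Prol at 2.59 ± 1.94 CPM and at 88.9 ± 10.4 CPM in WT D2 (SD, n = 3), *Myf5* was at 24.5 ± 3.59 CPM in WT Prol, and *Pax7* was not analysed here. The chondrocyte list, with 6 of 9 genes analysed, summed to 61.1 to 323 CPM in WT Prol and 32.4 to 122 CPM in WT D2, and *Col2a1* is itself one of them. Without *Col2a1* the other 5 summed to 14.9 to 42.1 CPM in WT Prol and 30.4 to 108 CPM in WT D2, so the lower sum in D2 was that of *Col2a1*. *Sox9*, a defining cartilage factor, was at 24.5 ± 12.2 CPM in WT Prol and 54.6 ± 40.9 CPM in WT D2, *Acan* at 2.26 ± 1.62 and 2.43 ± 2.05 CPM, and *Comp* at 0.132 ± 0.0742 and 0.972 ± 0.144 CPM (SD, n = 3 each). Osteoblast markers (4 of 6 analysed) summed to a median of 106 CPM in WT Prol and of 44.3 CPM in WT D2, smooth muscle or pericyte markers (4 of 5) to medians of 350 and 961 CPM, endothelial markers (3 of 4) to at most 2.46 CPM and the 1 of 3 haematopoietic markers analysed to at most 3.22 CPM in any library. Most of the smooth muscle sum was *Acta2*, with means of 309 CPM in WT Prol and 991 CPM in WT D2. *Pdgfrb* was at 46.6 and 213 CPM, *Cspg4* at 11.7 and 13.6 CPM and *Rgs5* at 0.534 and 1.07 CPM.

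The members varied together in 2 ways over the 18 libraries. *Col1a1*, *Col5a1* and *Col11a1* ran together, with Pearson correlations of log2 CPM of 0.98 for *Col1a1* with *Col11a1* and 0.97 for *Col1a1* with *Col5a1*, whereas *Col2a1* ran against *Mgp* (-0.81) and *Col5a3* (-0.80). These values are descriptions, and the libraries share groups and replicate numbers. Among 9478 genes with a mean of at least 10 CPM, those most like *Mgp* were *Pnpla8* (Pearson r = 0.98 over 18 libraries), *Sec22b* (0.97) and *Erlec1* (0.97). *Pnpla8* went from 22.1 to 41.1 CPM between the means of WT Prol and WT D2. Most like *Col5a3* were *Bhlhe40* (0.96), *Pramef8* (0.94) and *Mgp* itself (0.94). Most like *Col1a1* were *Slit3* (0.99), *Sec23a* (0.98), a coat protein of vesicles that leave the endoplasmic reticulum, and *P3h1* (0.98), a prolyl hydroxylase of collagen chains.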

How the data were processed

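RNA of 18 libraries, 6 groups of 3, was read as strand-specific single-end 50-base reads. The authors used cutadapt for trimming, NextGenMap for mapping to GRCm38 transcripts and RSEM for expected counts per gene, left out low genes, and applied TMM factors and the voom transform. The deposited score of a gene is its CPM, the expected count plus 0.5 relative to the scaled library total. Expected counts were recovered from it. Under a count of 20, 40.4% to 54.1% of them were whole (tolerance 0.01), and they were not tested as reads. Depth was 26437823 to 41619016 counts, and counting error is the only error that it bounds.

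Log2 CPM was fitted with limma 3.58.1 in R 4.3.3 (lmFit, eBayes with a variance trend) for a single factor of 6 groups over 17672 genes, those above 5 expected counts in each of the 3 libraries of at least 1 group. A call is a p-value under 0.05 after Benjamini-Hochberg adjustment over all these genes. Comparisons were D2 against D0 and Prol, KO against WT, and the differences of steps between genotypes. Sequencing lanes, which the study used as a block, are not given in the sources used here. Same-numbered libraries deviated together, with correlations over genes above 0.1 in all pairs of KO D2/D0 (lowest 0.151), KO D2/Prol (lowest 0.198) and the 3 KO/WT comparisons. Replicates 1 and 2 gave 0.454 and 0.470 in WT D2/D0 and 0.404 and 0.269 in WT D2/Prol, whereas replicate 3 gave 0.0100 and 0.0393. Blocked values therefore stand beside the KO steps and the KO/WT comparisons.

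Lengths, positions and exons are from GENCODE M21, upstream sequence is from RefSeq, and symbols matched 19072 of 19153 IDs. Members and lists were chosen with earlier results of these data known. Named genes are the 9 members, 3 other fibrillar collagens, up to 2 rises and up to 2 falls per list among genes called in WT D2/D0 by fitted change, and 3 genes most like *Mgp*, *Col5a3* and *Col1a1*. Marker genes, the members singled out for ratios and other pairs were chosen after their values were seen. Alternatives were scaling by library totals or median of ratios, no filter, a pseudocount of 1 CPM, voom weights, replicate blocks, only the groups compared, a call by unadjusted p under 0.05, over 1.5-fold and 10 CPM, and each library left out. The criteria of the study (an absolute log2 fold change over 1.5 in place of 1.5-fold) and leaving out all replicate 1 libraries were chosen later, with the values known. Figures were drawn with matplotlib 3.10.9.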

Additional observations from a re-analysis of the deposited data

How the results depend on the processing

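The count of members with every D0 library above every Prol library was 2 in each genotype under both other scalings and with a pseudocount of 1 CPM, and 2 to 3 with a single library left out. Calls between D2 and the earlier states depended on how the replicate number was treated. With the replicate block, 8 of 9 members were called in WT D2/D0, 9 in KO D2/D0, 8 in WT D2/Prol and 9 in KO D2/Prol, against 4 in each without it, and with voom and a random replicate block 8, 9, 7 and 9. Without the replicate 1 libraries of all groups, an alternative added after the data had been seen, 7 were called in each of the 4 comparisons. In KO D2/Prol 7 were called with library totals alone and 7 with only the groups compared. With a single library left out the counts were 4 to 6 in WT D2/D0, 4 to 4 in KO D2/D0, 4 to 5 in WT D2/Prol and 4 to 4 in KO D2/Prol. By the criteria of the study, added after the data had been seen, 5 were called in each of the 4 comparisons. The 4 called members kept direction and call in all of these. KO/WT and both differences of steps stayed at 0 members throughout, also with the replicate block. In WT D2/D0 and WT D2/Prol replicate 3 did not pair by the check used, while replicates 1 and 2 did. The blocked WT values of single members were therefore kept out of the sections above. For *Col1a1* in D2/D0 the blocked adjusted p-value was 0.000178 in WT and 0.000137 in KO (limma). Unblocked WT values set beside blocked KO values are thus no contrast of the genotypes.

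Directions turned in values that passed no test. With a single library left out, *Col1a2* ran from -0.15 to 0.67 in WT D2/D0 and from -0.0740 to 0.745 in WT D2/Prol, turning without WT D2 replicate 1, and was at -0.10 in WT D2/Prol without all replicate 1 libraries. *Mgp* in KO/WT D0 ran from -0.42 to 0.28 and turned without WT D0 replicate 2 or KO D0 replicate 1. Its difference between genotypes ran from -0.0376 to 0.67 for the step from D0 to D2 and from -0.58 to 0.12 for that from Prol to D0, turning without WT D0 replicate 2. For the latter step *Col5a3* ran from -0.46 to 0.0751, turning without WT Prol replicate 1 or WT D0 replicate 3. The causes were not tested. In the gene lists the replicate block raised the calls in KO D2/D0 to 12 of 25 for processing, 19 of 22 for fibril-associated genes, 5 of 6 receptors and 5 of 8 transcription factors. Depth limits *Lum*, *Dcn* and *Sox6* in D0 and none of the members.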
